A study of Mus musculus with 222 samples.

Results

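The enzymes that place methyl groups on lysine 9 of histone H3 (H3K9), and TRIM28, which brings one of them to its targets, were followed in mouse primordial germ cells (PGCs) that lack EED. The 6 genes, chosen by name, were Setdb1, Trim28, Ehmt1, Ehmt2, Suv39h1 and Suv39h2, out of 24391 gene symbols in the count tables, and all 6 were tested in every comparison. The cells were sorted from gonads by the Oct4-GFP reporter, in embryos on a mixed C57BL/6 and 129S1/SvlmJ background. ECKO embryos, labelled Eed -/-, are those in which Blimp1-Cre, active in the PGC lineage, deletes floxed Eed. Control embryos are labelled wild type, but all embryos came from Eed fl/fl mothers carrying Oct4-GFP, mated to Blimp1-Cre Eed fl/+ fathers, so each Control should also hold at least 1 floxed Eed allele from its mother. Bulk RNA-seq covered E11.5 XX (4 ECKO, 3 Control libraries), E11.5 XY (4 ECKO, 4 Control) and E13.5 XY (3 ECKO, 4 Control). Single cells were sequenced by Smart-seq2 at E12.5 from 2 embryos for each sex and genotype.

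SETDB1, the EHMT1 and EHMT2 pair, and SUV39H1 and SUV39H2 are histone methyltransferases whose product, methylated H3K9, is read by heterochromatin proteins and goes with gene silencing. TRIM28 (also KAP1) is the co-repressor that KRAB zinc finger proteins bind at their target sequences, and it recruits SETDB1 to silence transposons and imprinted alleles. EED belongs to a separate silencing system, Polycomb repressive complex 2, which methylates lysine 27 of the same histone, and in early PGCs a loss of dimethylated H3K9 is known to accompany a gain of that Polycomb mark.

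The sequences upstream of the start sites are shown for Trim28, Setdb1 and Suv39h2. Trim28 was the only 1 of the 6 to pass the test between ECKO and Control, in E11.5 XY alone. That result was lost in most fits with 1 library left out. Setdb1 and Suv39h2 were both higher at E13.5 than at E11.5 in XY Controls. Each sequence is the 250 bases before the annotated start in RefSeq, build GRCm38.p6, written 5′ to 3′ on the strand of the gene. Capitals mark GC boxes (GGGCGG), ETS sites (CCGGAAG) and CCAAT boxes (CCAAT), each searched on both strands. The Trim28 window lies at chr7:13023902-13024151, plus strand, the Setdb1 window at chr3:95357203-95357452, minus strand, and the Suv39h2 window at chr2:3474987-3475236, minus strand.
Trim28: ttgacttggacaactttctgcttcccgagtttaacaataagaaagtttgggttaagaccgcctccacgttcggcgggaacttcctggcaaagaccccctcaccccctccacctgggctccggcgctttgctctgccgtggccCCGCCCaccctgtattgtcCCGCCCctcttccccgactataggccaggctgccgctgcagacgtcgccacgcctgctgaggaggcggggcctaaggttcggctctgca
Setdb1: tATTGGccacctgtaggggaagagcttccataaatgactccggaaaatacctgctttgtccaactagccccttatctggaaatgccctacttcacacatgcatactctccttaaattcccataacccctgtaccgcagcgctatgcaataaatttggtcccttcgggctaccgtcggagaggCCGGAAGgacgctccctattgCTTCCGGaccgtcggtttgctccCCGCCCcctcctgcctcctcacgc
Suv39h2: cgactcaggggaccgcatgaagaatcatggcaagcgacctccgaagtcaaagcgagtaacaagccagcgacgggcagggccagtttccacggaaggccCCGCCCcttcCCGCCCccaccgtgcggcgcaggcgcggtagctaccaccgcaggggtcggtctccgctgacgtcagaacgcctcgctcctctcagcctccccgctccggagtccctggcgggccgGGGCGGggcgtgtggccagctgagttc
The Trim28 window held 2 GC boxes and 17 CpG dinucleotides. The Setdb1 window held 1 GC box, 2 ETS sites, 1 CCAAT box and 13 CpGs. The Suv39h2 window held 3 GC boxes and 27 CpGs. Of 32851 windows of that length in the RefSeq table, 32.7% held a GC box, 6.91% an ETS site and 33.8% a CCAAT box, and the median number of CpGs was 6. Besides these motifs, CACGTG (6.02% of windows) and the NRF1 motif (0.782% of windows) were searched and neither was in the 3 windows.

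Bulk depth was 1323850 to 7559310 counts in E11.5 XX ECKO and 415291 to 3088644 in E11.5 XX Controls, against 4903492 to 14974853 in the XY libraries. The Setdb1 locus overlaps Cers2, the Suv39h2 locus Dclre1c and the Trim28 locus Gm31649, which was not analysed here, while Chmp2a lies within 1 kb of Trim28 and Slc44a4 within 1 kb of Ehmt2. As no strand setting is given, reads of overlapping genes cannot be told apart. The smallest count behind a value of the 6 genes was 10, for Ehmt1 in E11.5 XX Control 1. At E12.5, 127 of 192 cells passed the filter on counts and genes, 13 to 22 per embryo, and their counts were summed per embryo. Eed, the targeted gene, had 15.7, 32.6, 36.7 and 46.0 CPM in E11.5 XY ECKO libraries, against 76.4, 108, 135 and 86.5 CPM in E11.5 XY Control libraries, and fell in ECKO (log2 fold change -1.62, SE 0.29, adjusted p = 0.0118). In E11.5 XX it stood at 26.6, 20.4, 11.9 and 26.2 CPM in E11.5 XX ECKO libraries, against 77.4, 84.6 and 74.2 CPM in E11.5 XX Control libraries (log2 fold change -1.88, SE 0.35, adjusted p = 0.0567). At E13.5 it stood at 3.18, 14.4 and 11.9 CPM in E13.5 XY ECKO libraries, against 89.1, 107, 63.8 and 129.6 CPM in E13.5 XY Control libraries, and fell in ECKO there too (log2 fold change -3.33, SE 0.56, adjusted p = 0.0107). The E12.5 sums were 13.98 and 21.9 CPM in the E12.5 XX ECKO embryos, against 59.2 and 62.0 CPM in the E12.5 XX Control embryos, and 21.6 and 7.10 CPM in the E12.5 XY ECKO embryos, against 40.7 and 52.6 CPM in the E12.5 XY Control embryos (adjusted p = 0.353 in XX and 0.738 in XY). In all 5 comparisons the highest Eed value in ECKO stayed under the lowest in Control. The sorted cells carried germ cell markers throughout, with a summed level of 10 markers of 1152 to 3178 CPM in ECKO samples and 1725 to 4168 CPM in Controls, and 1 of the 10 at 0 in 1 sample. E11.5 XX ECKO 4 stood apart with 1186 CPM of 13 interstitial markers, against at most 366 CPM in any other bulk library. Values of libraries and embryo sums are in CPM, the counts of a gene per library total after TMM scaling. CPM of single cells are per cell total, without TMM scaling. A change was called where the p of edgeR's quasi-likelihood test, adjusted by Benjamini-Hochberg over all genes tested, was under 0.05.

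Trim28, the co-repressor gene, was lower in E11.5 XY ECKO cells, the only change among the 6 genes that passed the test in any of the 5 comparisons of ECKO with Control. It had 596, 514, 514 and 490.4 CPM in E11.5 XY ECKO libraries, against 624, 807, 808 and 869.9 CPM in E11.5 XY Control libraries. All 4 ECKO libraries lay below the lowest Control, with means of 528 ± 46.3 CPM in ECKO and 777 ± 106 CPM in Control (SD, n = 4 each). The log2 fold change was -0.54 (SE 0.13, adjusted p = 0.0446), rank 243 by p among 12497 genes tested. 1 of the 6 genes was thus called in a comparison that called 2.13% of all genes (0.616% as lower), and 1 of the 6 had groups that did not overlap, against 9.93% of all genes. The same 1 of the 6 had an unadjusted p under 0.05, against 16.1% of all genes. The call rests on most of the 8 libraries: the adjusted p was 0.122, 0.0960 and 0.159 without Control 2, 3 or 4, and 0.100, 0.106 and 0.102 without ECKO 2, 3 or 4, while the log2 fold change stayed between -0.62 and -0.48 over all 8 omissions. ECKO 4, the lowest of the 4, also had the highest interstitial sum of its group (366 CPM) and the lowest germ cell sum (1501 CPM), and without it the log2 fold change was -0.50. In one fit over the 22 bulk libraries the log2 fold change was -0.56, with an adjusted p of 0.330. Over the whole interstitial list the sums ran from 17.5 to 366 CPM in ECKO (1 to 2 of 13 genes at 0) and 10.2 to 97.5 CPM in Control (2 to 5 at 0), and over the supporting cell list from 24.04 to 88.8 CPM in ECKO (1 of 14 genes at 0) and 6.23 to 25.2 CPM in Control (2 to 3 at 0). The endothelial sums were 116 to 303 CPM in ECKO and 219 to 328 CPM in Control. Of 6 endothelial genes tested, 4 had positive and 2 negative log2 fold changes, with 1 called lower. The part of these markers in the Trim28 result was otherwise not tested. In bulk samples, fewer cells of a type and less RNA per cell cannot be told apart.

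In the other groups Trim28 was also lower on average in ECKO, without a call. In E11.5 XX it had 403, 655, 475 and 396 CPM in E11.5 XX ECKO libraries, against 662, 499.8 and 719 CPM in E11.5 XX Control libraries, and the groups overlapped, since ECKO 2 stood within the Control range. The log2 fold change there was -0.38 (SE 0.21, adjusted p = 0.448). At E13.5 Trim28 stood at 598, 432 and 360.3 CPM in E13.5 XY ECKO libraries, against 786, 842, 1169 and 590.4 CPM in E13.5 XY Control libraries. ECKO 1 lay just above the lowest Control and the other 2 ECKO libraries lay below all 4 Controls. The log2 fold change was -0.86 (SE 0.34, adjusted p = 0.161), and -1.17 with an adjusted p of 0.0285 without ECKO 1. In one fit over the 22 bulk libraries it was -0.87, with an adjusted p of 0.0124. Without ECKO 1, 2141 genes were called, and in the one fit 2987, against 604 in the main fit. ECKO 1 had the lowest Eed of the ECKO libraries, 3.18 CPM, against 14.4 and 11.9 CPM in ECKO 2 and 3. It also had the germ cell sum nearest to Controls, 3178 CPM. The germ cell sums were 2054 CPM in ECKO 2, 2108 CPM in ECKO 3 and 3581 to 4168 CPM in Controls. Of the 10 markers behind them, 4 had positive and 6 negative log2 fold changes in ECKO, with 1 called higher and 0 lower. The part of these sums in the Trim28 values was not tested. At E12.5 the embryo sums gave 659.8 and 776 CPM in the E12.5 XX ECKO embryos, against 1258 and 1767 CPM in the E12.5 XX Control embryos, with both ECKO embryos below both Controls (log2 fold change -1.07, SE 0.48, adjusted p = 0.401). The germ cell sums of these embryos were 1719 and 1152 CPM in ECKO, against 3005 and 2947 CPM in Control. Of the 10 germ cell markers, 3 had positive and 7 negative log2 fold changes, and 0 were called. Sums of the 8 endothelial list genes were 21.1 and 5.29 CPM in ECKO (5 and 6 genes at 0), against 151 and 90.7 CPM in Control (4 at 0 in each). Such a sum can rest on few genes, and is not a share of endothelial cells. The part of these sums in the E12.5 XX values was not tested, for Trim28 or the other 5 genes. In E12.5 XY the sums gave 1585 and 1492 CPM in the E12.5 XY ECKO embryos, against 1258 and 2378 CPM in the E12.5 XY Control embryos, where both ECKO embryos lay between the Controls (log2 fold change -0.24, SE 0.47, adjusted p = 0.978). The difference of the ECKO effect between the sexes was 0.18 (SE 0.25, adjusted p = 0.965) at E11.5 and -0.83 (SE 0.67, adjusted p = 1) at E12.5, and between E13.5 and E11.5 in XY it was -0.31 (SE 0.32, adjusted p = 0.660).

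**Figure D1:**
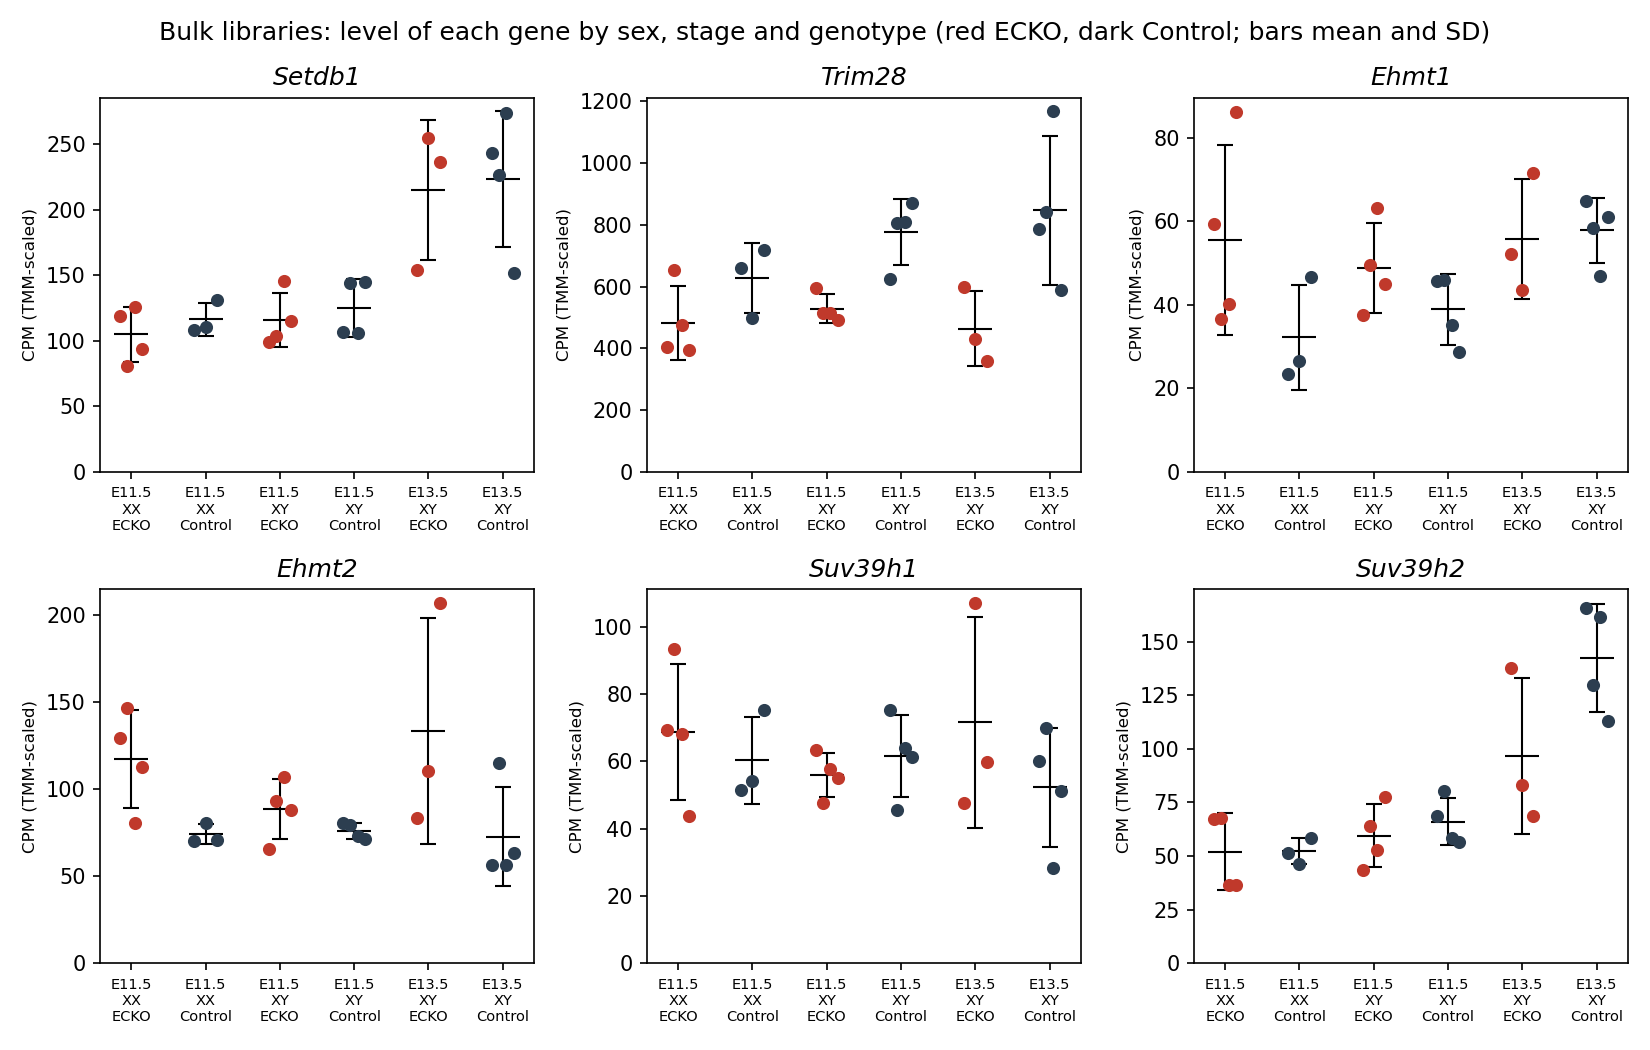
Level of each gene in CPM (vertical axis, from 0) in the 22 bulk libraries, by sex, stage and genotype; each point is a library, with the mean and SD of the group as bars. The 4 E11.5 XY ECKO libraries of Trim28 lie between 490.4 and 596 CPM, below all 4 Controls, and Setdb1 and Suv39h2 stand higher at E13.5 than at E11.5 in XY Controls.

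Setdb1, which encodes the trimethylating enzyme that TRIM28 recruits, did not pass the test between ECKO and Control in any group. In E11.5 XY it had 99.2, 103, 145 and 115 CPM in E11.5 XY ECKO libraries, against 107, 144, 106 and 145 CPM in E11.5 XY Control libraries, with overlapping ranges. In E11.5 XX the values were 119, 81.0, 126 and 94.0 CPM in E11.5 XX ECKO libraries, against 108, 110.4 and 131 CPM in E11.5 XX Control libraries. At E13.5 they were 154, 254 and 237 CPM in E13.5 XY ECKO libraries, against 243, 226, 274 and 151 CPM in E13.5 XY Control libraries. ECKO and Control overlapped in each of these 3 sets, and the log2 fold changes were -0.095 (SE 0.18, adjusted p = 0.849), -0.16 (SE 0.23, adjusted p = 0.811) and -0.068 (SE 0.31, adjusted p = 0.923). At E12.5 it had 37.1 and 61.9 CPM in the E12.5 XX ECKO embryos, against 66.1 and 131 CPM in the E12.5 XX Control embryos, without overlap but not called (log2 fold change -0.99, SE 0.55, adjusted p = 0.474). Without Control E301.1 the log2 fold change was -0.41, and without ECKO E298.4 it was -1.41. In E12.5 XY it had 58.4 and 100.3 CPM in the E12.5 XY ECKO embryos, against 102 and 66.1 CPM in the E12.5 XY Control embryos, close to even (log2 fold change -0.083, SE 0.55, adjusted p = 1).

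Ehmt1 and Ehmt2, which encode G9a-like protein and G9a, the partner enzymes of H3K9 dimethylation, had positive log2 fold changes in both sexes at E11.5 that did not pass the test. Ehmt2 had 129, 147, 80.6 and 113 CPM in E11.5 XX ECKO libraries, against 70.4, 80.7 and 71.0 CPM in E11.5 XX Control libraries. The lowest ECKO value lay just under the highest Control value, and the other 3 ECKO libraries were above all 3 Controls (log2 fold change 0.65, SE 0.26, adjusted p = 0.290). In E11.5 XY Ehmt2 had 65.4, 93.2, 107 and 88.3 CPM in E11.5 XY ECKO libraries, against 80.5, 79.2, 73.3 and 71.4 CPM in E11.5 XY Control libraries, with ECKO 1 below the Controls and the other 3 ECKO libraries above them (log2 fold change 0.23, SE 0.19, adjusted p = 0.595). At E13.5 the values were 83.5, 110.2 and 207 CPM in E13.5 XY ECKO libraries, against 56.2, 115, 56.2 and 63.5 CPM in E13.5 XY Control libraries. Control 2 stood apart from the other 3 Controls and exceeded 2 of the 3 ECKO libraries (log2 fold change 0.86, SE 0.40, adjusted p = 0.219). In one fit over the 22 bulk libraries the value was 0.88 and passed the test (adjusted p = 0.0399), and without ECKO 3 it was 0.43. That one fit called 2987 genes in E13.5 XY, against 604 in the main fit. At E12.5 Ehmt2 had 99.7 and 232 CPM in the E12.5 XY ECKO embryos, against 93.8 and 77.3 CPM in the E12.5 XY Control embryos, without overlap (log2 fold change 0.96, SE 0.58, adjusted p = 0.781, and 0.22 without the higher ECKO embryo, E296.1), and 74.4 and 68.4 CPM in the E12.5 XX ECKO embryos, against 45.4 and 121 CPM in the E12.5 XX Control embryos, where both ECKO embryos lay between the Controls (log2 fold change -0.22, SE 0.57, adjusted p = 0.932).

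Ehmt1 followed a less even course. It had 59.5, 36.5, 40.3 and 86.2 CPM in E11.5 XX ECKO libraries, against 23.5, 26.5 and 46.7 CPM in E11.5 XX Control libraries, with 1 Control inside the ECKO range (log2 fold change 0.75, SE 0.40, adjusted p = 0.425). The highest ECKO value there came from ECKO 4, the library with the high interstitial sum, and without it the log2 fold change was 0.46. In E11.5 XY the values were 37.5, 49.5, 63.1 and 44.9 CPM in E11.5 XY ECKO libraries, against 45.7, 46.0, 35.2 and 28.7 CPM in E11.5 XY Control libraries, overlapping (log2 fold change 0.34, SE 0.25, adjusted p = 0.541). At E13.5 they were 52.2, 43.6 and 71.5 CPM in E13.5 XY ECKO libraries, against 64.9, 58.3, 46.9 and 61.0 CPM in E13.5 XY Control libraries, with ECKO on both sides of the Controls (log2 fold change -0.061, SE 0.38, adjusted p = 0.947). At E12.5 Ehmt1 had 38.0 and 64.4 CPM in the E12.5 XX ECKO embryos, against 25.9 and 27.2 CPM in the E12.5 XX Control embryos, both ECKO embryos above both Controls but not called (log2 fold change 0.95, SE 0.56, adjusted p = 0.497), and the log2 fold change was 0.52 without the higher ECKO embryo, E298.4. In the median cell Ehmt1 had 21.5 and 14.2 CPM in the XX ECKO embryos, against 20.1 and 0.725 CPM in the XX Control embryos. Unlike the embryo sums, these medians overlapped. In E12.5 XY the embryo sums of Ehmt1 were 49.5 and 82.9 CPM in ECKO, against 77.7 and 47.0 CPM in Control, with each Control near an ECKO embryo (log2 fold change 0.088, SE 0.55, adjusted p = 1).

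Suv39h1, on the X chromosome, and Suv39h2, on chromosome 2, encode the enzymes that trimethylate H3K9 in pericentric heterochromatin. Suv39h1 had 63.3, 47.6, 57.7 and 55.0 CPM in E11.5 XY ECKO libraries, against 75.3, 45.7, 64.1 and 61.2 CPM in E11.5 XY Control libraries, overlapping (log2 fold change -0.13, SE 0.22, adjusted p = 0.834). In E11.5 XX it had 69.4, 93.4, 68.3 and 43.7 CPM in E11.5 XX ECKO libraries, against 51.6, 54.2 and 75.2 CPM in E11.5 XX Control libraries, overlapping as well (log2 fold change 0.16, SE 0.31, adjusted p = 0.860). At E13.5 the values were 47.8, 107 and 59.7 CPM in E13.5 XY ECKO libraries, against 60.1, 69.8, 28.4 and 51.2 CPM in E13.5 XY Control libraries, with 1 ECKO library above all Controls (log2 fold change 0.44, SE 0.43, adjusted p = 0.586). At E12.5 the embryo sums were lower in ECKO in both sexes without passing the test. They were 111 and 64.0 CPM in the E12.5 XX ECKO embryos, against 201 and 161 CPM in the E12.5 XX Control embryos (log2 fold change -1.05, SE 0.54, adjusted p = 0.456), and 31.4 and 29.7 CPM in the E12.5 XY ECKO embryos, against 122 and 46.5 CPM in the E12.5 XY Control embryos (log2 fold change -1.46, SE 0.55, adjusted p = 0.738). In neither sex did the ECKO and Control embryos overlap, but the XY Controls lay far apart, and without the higher one, E279.1, the log2 fold change was -0.58.

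Suv39h2 had 43.6, 64.1, 52.8 and 77.6 CPM in E11.5 XY ECKO libraries, against 68.7, 80.3, 58.3 and 56.6 CPM in E11.5 XY Control libraries, overlapping (log2 fold change -0.13, SE 0.23, adjusted p = 0.839). In E11.5 XX it had 67.4, 67.9, 36.5 and 36.5 CPM in E11.5 XX ECKO libraries, against 51.6, 46.5 and 58.5 CPM in E11.5 XX Control libraries, with ECKO libraries on both sides of the Controls (log2 fold change -0.013, SE 0.33, adjusted p = 0.992). At E13.5 the values were 138, 83.3 and 68.9 CPM in E13.5 XY ECKO libraries, against 166, 129.8, 162 and 113 CPM in E13.5 XY Control libraries, where ECKO 1 stood among the Controls and the other 2 below them (log2 fold change -0.55, SE 0.36, adjusted p = 0.385). Without ECKO 1 the log2 fold change was -0.98, with an adjusted p of 0.0597. At E12.5 it had 53.0 and 21.6 CPM in the E12.5 XX ECKO embryos, against 44.2 and 40.1 CPM in the E12.5 XX Control embryos (log2 fold change -0.17, SE 0.58, adjusted p = 0.951) and 41.1 and 58.5 CPM in the E12.5 XY ECKO embryos, against 57.5 and 48.3 CPM in the E12.5 XY Control embryos (log2 fold change -0.086, SE 0.58, adjusted p = 1), with ECKO embryos on both sides of the Controls in each sex.

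Counted over the 6 genes, none was called in E11.5 XX, E13.5 XY, E12.5 XX or E12.5 XY, where 0.172%, 4.90%, 0.0215% and 0.00717% of all genes were called. At an unadjusted p under 0.05, edgeR's test had 1 of the 6 in E11.5 XX (Ehmt2; 13.9% of all genes), 2 in E13.5 XY (Trim28 and Ehmt2; 22.7%), 1 in E12.5 XX (Trim28; 12.3%) and 1 in E12.5 XY (Suv39h1; 6.31%). No gene of the 6 separated ECKO from Control in E11.5 XX (12.6% of all genes did) or E13.5 XY (23.6%). At E12.5, with 2 embryos a group, 4 of the 6 did in XX (41.2%) and 2 in XY (36.8%). The median log2 fold change of the 6 was -0.11 in E11.5 XY, 0.073 in E11.5 XX, -0.065 in E13.5 XY, -0.61 in E12.5 XX and -0.084 in E12.5 XY. Over all genes tested it was 0.0016, 0.026, 0.049, 0.13 and 0.10 in the same order. No interaction test called any of the 6, with 0.00% of all genes called between the sexes at E11.5, 0.00% between the sexes at E12.5 and 1.20% between the stages in XY. At an unadjusted p under 0.05 edgeR's test had 0 of the 6 in all 3, against 5.27%, 4.88% and 17.6% of all genes. DESeq2 called as many of the 6 as edgeR in each comparison.

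**Figure D2:**
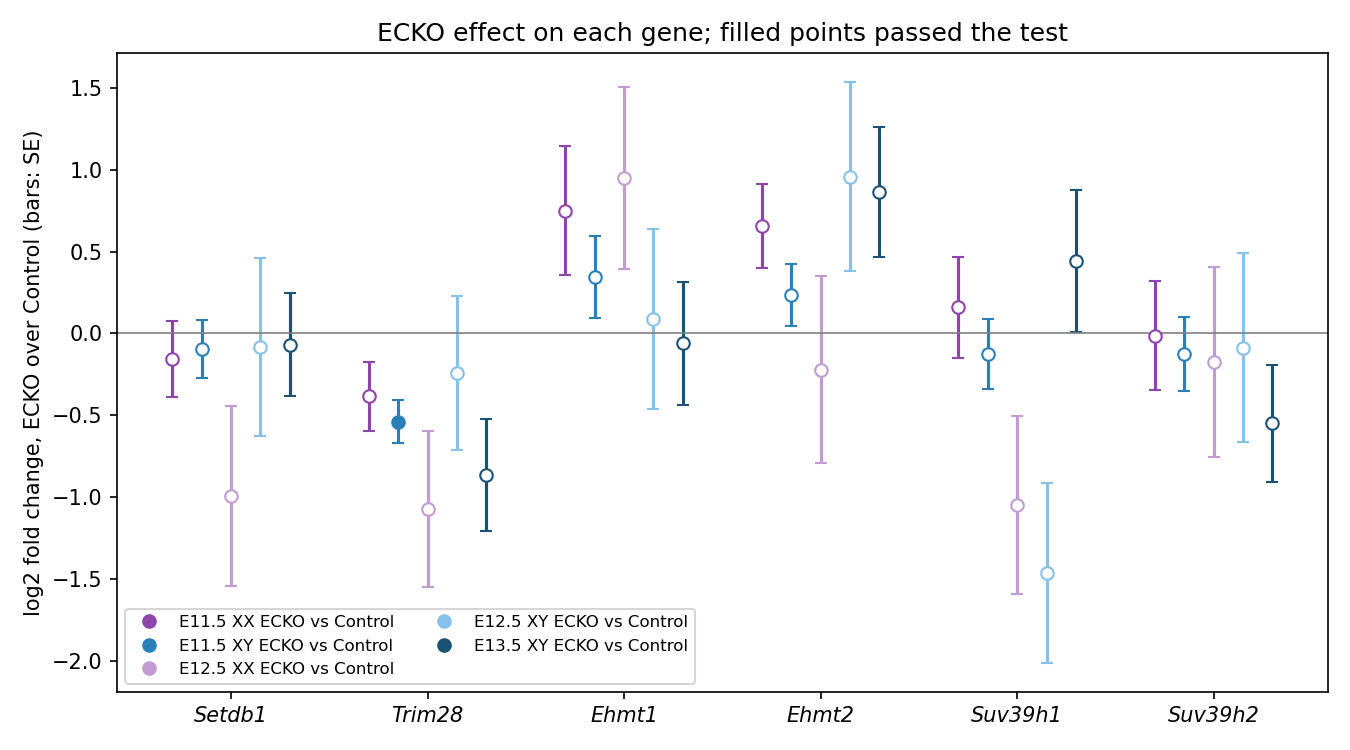
Log2 fold change of ECKO over Control (vertical axis) for each gene in the 5 comparisons, shown by colour. Bars are the SE, derived from the log2 fold change and the F of edgeR's test. Filled points passed the test at an adjusted p under 0.05. The point for Trim28 in E11.5 XY, at -0.54, is the only filled one, and the E12.5 points have the widest bars.

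Between E11.5 and E13.5, as XY germ cells leave the early PGC state, Setdb1 and Suv39h2 rose in Controls. Setdb1 had 243, 226, 274 and 151 CPM in E13.5 XY Controls, against 107, 144, 106 and 145 CPM in E11.5 XY Controls. All 4 later libraries were above all 4 earlier ones (log2 fold change 0.74, SE 0.24, adjusted p = 0.0224). Suv39h2 had 166, 129.8, 162 and 113 CPM in E13.5 XY Controls, against 68.7, 80.3, 58.3 and 56.6 CPM in E11.5 XY Controls, again without overlap (log2 fold change 1.02, SE 0.27, adjusted p = 0.00721). These 2 calls among 6 genes came in a comparison that called 31.5% of all genes, 15.8% as higher, so the count is near that of genes at large, and the same 2 were under an unadjusted p of 0.05, where 41.9% of all genes were. Ehmt1 also separated the stages (57.8 ± 7.73 CPM at E13.5 and 38.9 ± 8.44 CPM at E11.5, SD, n = 4 each) without a call (adjusted p = 0.230), which makes 3 of the 6 without overlap, against 36.9% of all genes. Trim28, Ehmt2 and Suv39h1 had log2 fold changes of 0.028 (SE 0.22, adjusted p = 0.941), -0.16 (SE 0.30, adjusted p = 0.723) and -0.33 (SE 0.32, adjusted p = 0.462). The E11.5 and E13.5 libraries were deposited in separate tables, so stage and table cannot be told apart. Setdb1 lost its call without E11.5 Control 1 (adjusted p = 0.0682), E11.5 Control 3 (0.0654), E13.5 Control 1 (0.0532) or E13.5 Control 3 (0.0575), with log2 fold changes of 0.64 to 0.91 over all omissions, and Suv39h2 kept its call in all 18 alternatives. Marker genes also differed between the stages. The germ cell sum was 3581 to 4168 CPM in E13.5 XY Controls and 1901 to 2109 CPM in E11.5 XY Controls. Its 10 markers went both ways, with 5 called higher and 3 lower. The endothelial sum was 183 to 248 CPM at E13.5 (3 to 5 of 8 genes at 0) and 219 to 328 CPM at E11.5 (0 to 3 at 0). All 8 endothelial markers were negative and 3 of them called lower. The 3 blood markers tested were all called lower, with a blood sum of 0 to 1.37 CPM at E13.5 and 5.26 to 189 CPM at E11.5. The supporting cell sum was 13.2 to 310.0 CPM at E13.5 and 6.23 to 25.2 CPM at E11.5. The part of these markers in the stage changes was not tested.

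In ECKO cells Setdb1 rose over the same interval. It had 154, 254 and 237 CPM in E13.5 XY ECKO libraries, against 99.2, 103, 145 and 115 CPM in E11.5 XY ECKO libraries. The 3 later libraries were above all 4 earlier ones (log2 fold change 0.80, SE 0.26, adjusted p = 0.0269), 1 call among the 6 genes where 23.7% of all genes were called (11.4% as higher) and 33.7% did not overlap. It was also the only one of the 6 under an unadjusted p of 0.05, where 35.8% of all genes were. Suv39h2 had 138, 83.3 and 68.9 CPM in E13.5 XY ECKO libraries, against 43.6, 64.1, 52.8 and 77.6 CPM in E11.5 XY ECKO libraries. Those ranges overlapped, and the log2 fold change was 0.60 (SE 0.29, adjusted p = 0.140). The difference of this change between the genotypes was -0.42 (SE 0.40, adjusted p = 0.628) for Suv39h2 and 0.057 (SE 0.35, adjusted p = 0.964) for Setdb1, so neither was shown to differ. Trim28, Ehmt1, Ehmt2 and Suv39h1 had log2 fold changes of -0.29 (SE 0.24, adjusted p = 0.415), 0.10 (SE 0.32, adjusted p = 0.855), 0.50 (SE 0.32, adjusted p = 0.277) and 0.27 (SE 0.35, adjusted p = 0.618). The call on Setdb1 in ECKO was lost without E11.5 ECKO 1 (adjusted p = 0.0536), 2 (0.0684) or 4 (0.0509), or without E13.5 ECKO 2 (0.117) or 3 (0.0722). The germ cell sum was 2054 to 3178 CPM in E13.5 XY ECKO libraries and 1501 to 2010 CPM in E11.5 XY ECKO libraries. Of its 10 markers, 3 were called higher and 3 lower. The endothelial sum was 25.7 to 86.7 CPM at E13.5 and 116 to 303 CPM at E11.5, and the blood sum 0 to 0.381 CPM at E13.5 and 9.71 to 68.9 CPM at E11.5. Their part was not tested here either.

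XX and XY Controls were also set against each other, and Suv39h1 is the X-linked gene among the 6. None of the 6 genes was called in XX against XY Controls at E11.5 (0.296% of all genes called) or at E12.5 (0.0430%), and 0 of the 6 had an unadjusted p under 0.05 by edgeR's test (10.4% of all genes at E11.5, 5.70% at E12.5). Suv39h1 averaged 60.4 ± 12.9 CPM in XX Controls (SD, n = 3) and 61.6 ± 12.2 CPM in XY Controls (n = 4) at E11.5 (log2 fold change -0.0028, SE 0.27, adjusted p = 1). At E12.5 it had 201 and 161 CPM in the XX Control embryos, against 122 and 46.5 CPM in the XY Control embryos, without overlap (log2 fold change 1.11, SE 0.54, adjusted p = 0.875). Ehmt1 was the other way round at E12.5, with 25.9 and 27.2 CPM in XX Controls and 77.7 and 47.0 CPM in XY Controls (log2 fold change -1.23, SE 0.56, adjusted p = 0.870). With Suv39h2, 3 of the 6 genes separated the Control sexes at E12.5, against 31.3% of all genes, and none did at E11.5 (12.1%). The sexes were in separate tables at E11.5, of unequal depth, and also at E12.5, and sex and table cannot be told apart at either stage.

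Single cells at E12.5 showed how the genes were spread within an embryo. A gene was scored as present in a cell at 10 CPM or more, and exact Clopper-Pearson intervals cover the sampling of cells only. Trim28 was present in every kept cell of 7 embryos and in 12 of 13 cells of XX ECKO embryo E277.3. The median cell had 762 and 445 CPM in the XX ECKO embryos, against 1086 and 1561 CPM in the XX Control embryos. Both XX ECKO medians were below both XX Control medians. In XY the median cell had 1144 and 1679 CPM in ECKO embryos, against 1071 and 1878 CPM in Control embryos.

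The methyltransferases were patchier. Setdb1 was detected in 12 of 13 and 7 of 13 cells of the XX ECKO embryos, against 12 of 14 and 13 of 16 of the XX Controls. The XY ECKO embryos had it in 14 of 18 and 16 of 18 cells, against 13 of 13 and 18 of 22 of the Controls. The lowest share was in XX ECKO embryo E298.4, 53.8% (95% interval 25.1 to 80.8%), while XY Control E279.1 had it in all 13 cells. Suv39h1 was present in 12 of 13 and 7 of 13 cells of the XX ECKO embryos, against 13 of 14 and 15 of 16 of the XX Controls. The XY ECKO embryos had it in 13 of 18 and 9 of 18 cells, against 13 of 13 and 15 of 22 of the Controls. ECKO and Control overlapped in XY but not in XX. Under the stricter cell filter they overlapped in both sexes, and with cells thinned to equal depth in neither. Suv39h2 gave 11 of 13 and 4 of 13 cells in the XX ECKO embryos, against 9 of 14 and 12 of 16 in XX Controls. Its XY shares were 12 of 18 and 12 of 18 cells in ECKO, against 11 of 13 and 21 of 22 in Controls, both ECKO embryos lower.

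Ehmt1 went the other way in XX, present in 11 of 13 and 9 of 13 cells of the ECKO embryos, against 8 of 14 and 7 of 16 of the Controls. The XY ECKO embryos had it in 14 of 18 and 11 of 18 cells, against 12 of 13 and 18 of 22 Control cells. For Ehmt2 the counts were 11 of 13 and 10 of 13 in XX ECKO embryos, against 6 of 14 and 12 of 16 in XX Controls. In XY they were 16 of 18 and 17 of 18 in ECKO embryos, against 11 of 13 and 18 of 22 in Controls. Both ECKO embryos exceeded both Controls for Ehmt1 in XX and for Ehmt2 in both sexes. Both lay below both Controls for Ehmt1 in XY. Scored by any count in cells thinned to equal depth, the XX groups overlapped for both genes. Ehmt1 then had 61.5% and 53.8% in XX ECKO, against 57.1% and 37.5% in XX Control. Ehmt2 had 84.6% and 61.5% in XX ECKO, against 42.9% and 68.75% in XX Control. Both XY separations held there. Under the stricter cell filter Ehmt1 separated the groups in both sexes and Ehmt2 in neither. With 2 embryos a group these shares were not tested, and they were not set beside those of all genes. A cell held a median of 4 to 6 of the 6 genes, depending on the embryo, and the cells with all 6 ranged from 2 of 14 (XX Control E277.5) to 9 of 13 (XX ECKO E277.3 and XY Control E279.1). XX ECKO embryo E298.4 had the lowest germ cell sum of all embryos (1152 CPM, with 1719 CPM in the other XX ECKO embryo) and the highest interstitial sum (240.1 CPM, against at most 7.92 CPM in the others), and the part of these in its low Setdb1, Suv39h1 and Suv39h2 shares was not tested. Supporting cell markers summed to 17.2 to 161 CPM in the 4 ECKO embryos and 0 to 37.4 CPM in the 4 Controls.

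**Figure D3:**
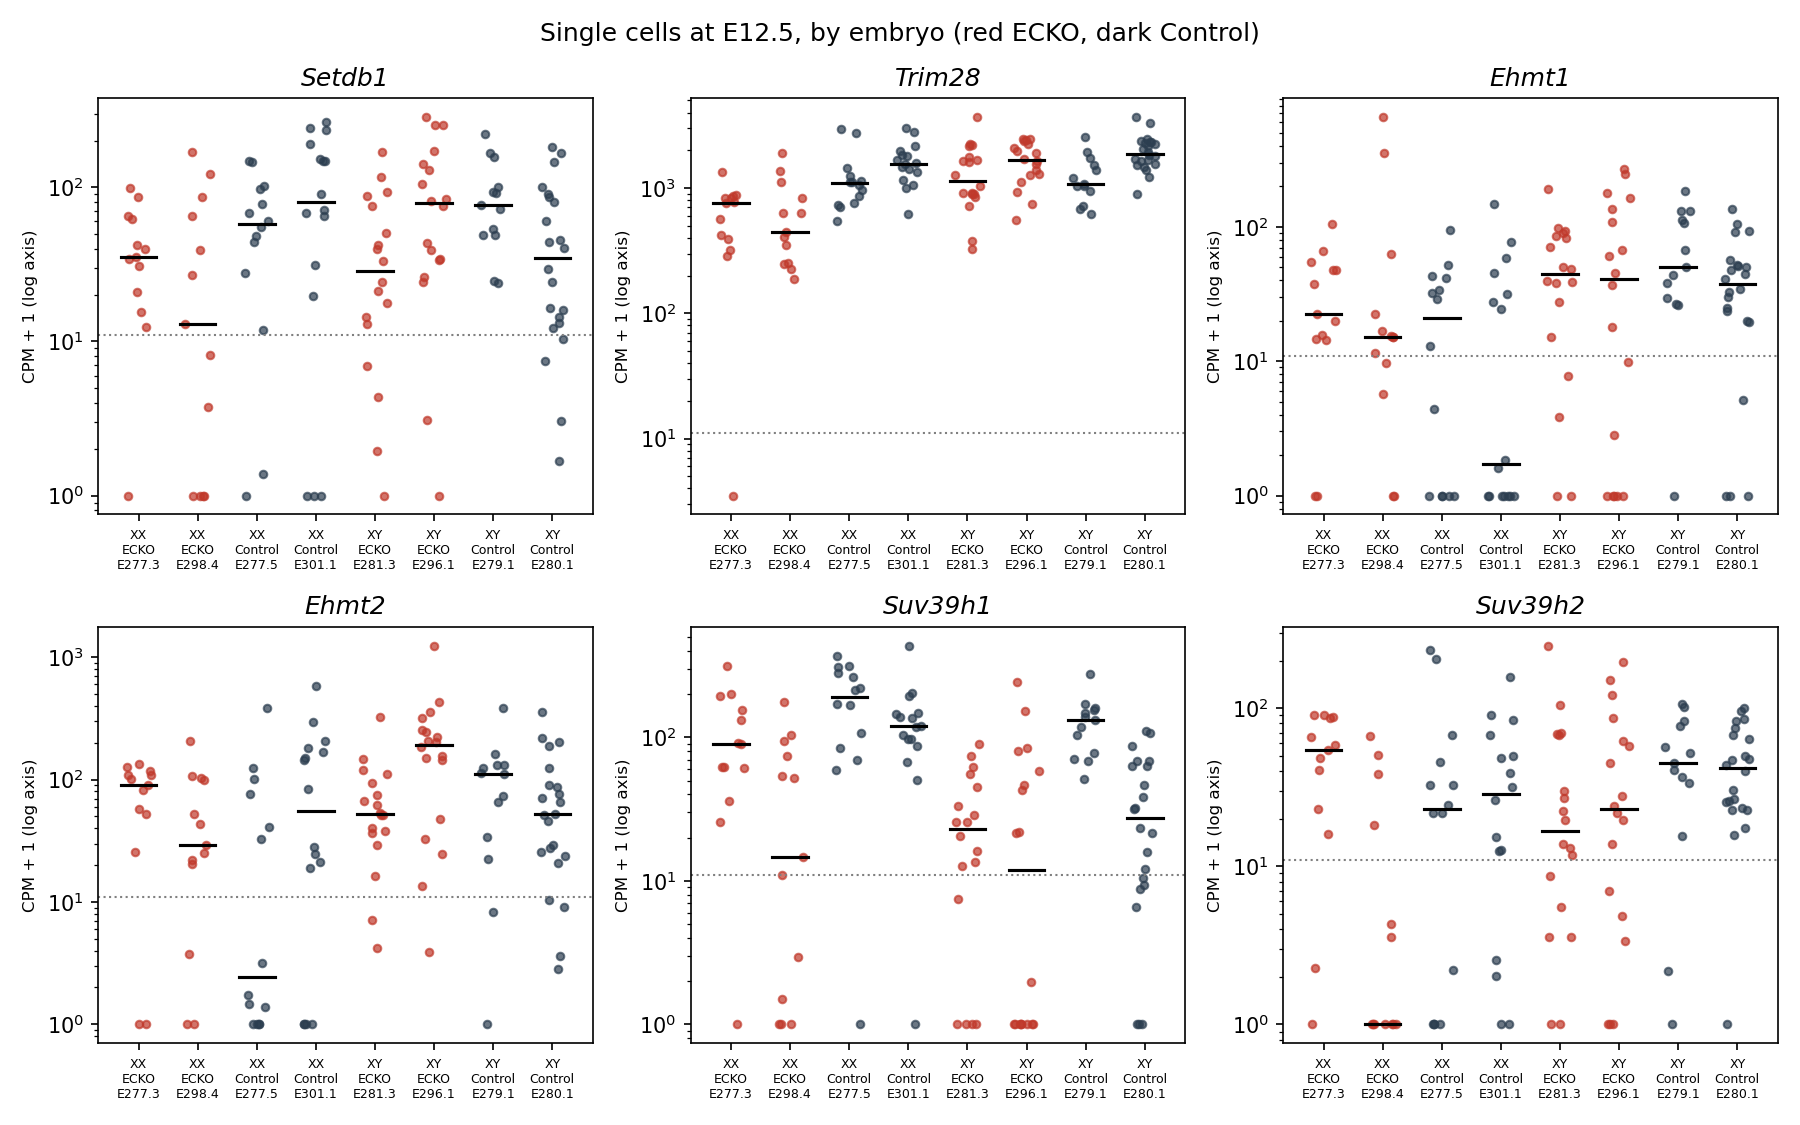
CPM plus 1 of each gene in the 127 kept E12.5 cells (log axis), by embryo with ECKO left of Control within a sex; points are cells, the bar is the embryo's median and the dotted line marks 10 CPM. Trim28 lies above the line in nearly every cell, while the other 5 genes have cells at 0 in most embryos.

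The wider H3K9 methylation network, taken as 6 lists of genes by role, held 3 calls between ECKO and Control. In E11.5 XY, Uhrf1, a reader of H3K9 methylation that also guides DNA methylation, had 39.5, 59.8, 54.6 and 42.5 CPM in ECKO, against 21.7, 22.3, 22.1 and 10.1 CPM in Control, without overlap (log2 fold change 1.38, SE 0.30, adjusted p = 0.0261). Kdm1b, a demethylase best known for H3K4 in growing oocytes, had 19.1, 35.4, 19.2 and 40.7 CPM in ECKO, against 13.8, 9.96, 5.38 and 9.35 CPM in Control, again without overlap (log2 fold change 1.59, SE 0.40, adjusted p = 0.0482). In E13.5 XY, Chaf1a, a subunit of the chromatin assembly factor CAF-1 that SETDB1 works with, had 68.9, 38.1 and 22.5 CPM in ECKO, against 104, 133, 174 and 175 CPM in Control, all 3 ECKO libraries below all 4 Controls (log2 fold change -1.75, SE 0.44, adjusted p = 0.0425). Each of these 3 calls was lost without at least 4 of the libraries in turn, with adjusted p up to 0.0823 for Uhrf1, 0.136 for Kdm1b and 0.147 for Chaf1a.

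By list, in E11.5 XY 1 of 7 readers rose and none fell, 1 of 12 tested demethylases rose and none fell, and none of 12 partners of SETDB1, EHMT and TRIM28, 3 other writers, 5 tested HUSH and MORC2 genes or 8 KRAB zinc finger genes passed, beside 2.13% of all genes. In E13.5 XY 1 of 12 partners fell and no other gene of the 6 lists passed, beside 4.90% of all genes. None passed in E11.5 XX, E12.5 XX or E12.5 XY. The 8 KRAB zinc finger genes, whose proteins bring TRIM28 to DNA, all had negative log2 fold changes in E13.5 XY, with a median of -0.87 against 0.049 over all genes tested. The lowest adjusted p among them was 0.128, for Zfp932 (-1.73), singled out after its value was seen. In E11.5 XY 3 of the 8 were positive and 5 negative, with a median of -0.13, and in E12.5 XY 7 of the 8 were positive, with a median of 1.15. In E11.5 XX 3 of 7 tested were positive, with a median of -0.45, and in E12.5 XX 4 of 8, with a median of -0.34. The 12 partners had a median of -0.66 in E13.5 XY, -0.26 in E11.5 XY, -0.19 in E11.5 XX, -0.70 in E12.5 XX and -0.23 in E12.5 XY. In E13.5 XY the germ cell sums were also lower in the ECKO libraries, as given with Trim28, though the 10 markers behind them went both ways. Supporting cell sums there ran from 78.6 to 100.8 CPM in ECKO and 13.2 to 310.0 CPM in Controls, and interstitial sums from 24.4 to 75.9 CPM in ECKO and 8.75 to 65.4 CPM in Controls. Endothelial sums ran from 25.7 to 86.7 CPM in ECKO and 183 to 248 CPM in Controls. Of the 4 endothelial genes tested there, 3 had positive and 1 a negative log2 fold change. The part of these markers was not tested.

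**Figure D4:**
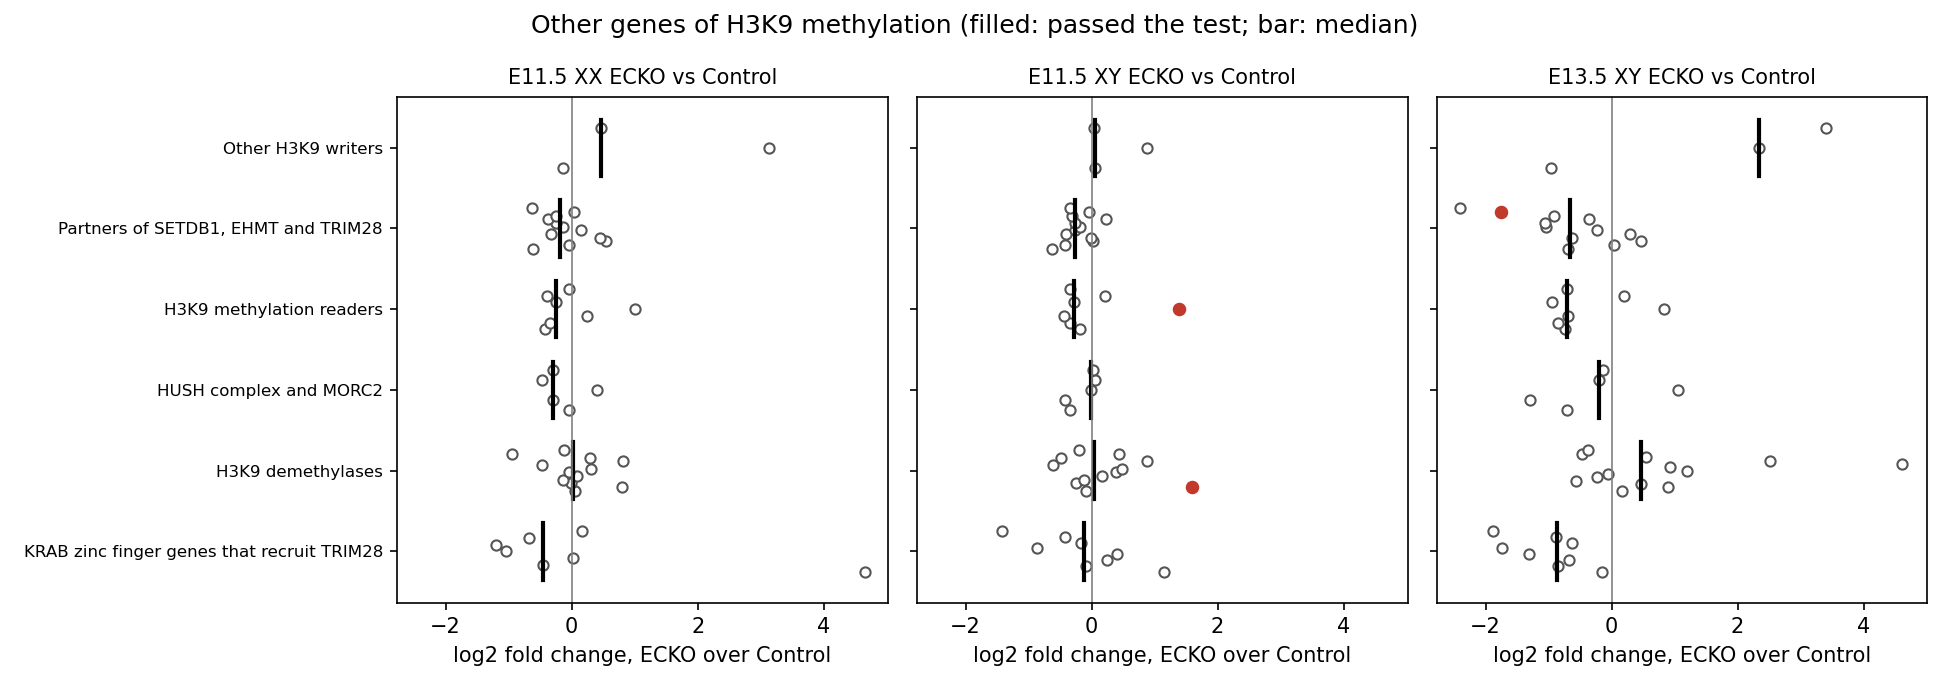
Log2 fold change of ECKO over Control (horizontal axis) of each tested gene in 6 lists of the H3K9 methylation network, in the 3 bulk comparisons; points are genes, filled where they passed the test, and the bar is the median of the list. Uhrf1 and Kdm1b in E11.5 XY and Chaf1a in E13.5 XY are the filled points, and the 8 KRAB zinc finger genes lie left of 0 in E13.5 XY.

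From E11.5 to E13.5 in XY Controls, 19 entries over these lists rose and 1 fell, with Mphosph8 on 2 lists. Among partners 5 of 12 rose, including Atf7ip, which stabilises SETDB1 (1.67, SE 0.21, adjusted p = 5.43e-06 on the log2 scale), and Zfp644, which works with the EHMT pair (1.98, SE 0.32, adjusted p = 1.07e-04). Among readers 3 of 7 rose and 1 fell. Cbx3, the gene of the heterochromatin protein HP1 gamma, had 729, 701, 867 and 676 CPM in E13.5 Controls, against 64.4, 57.9, 82.5 and 76.3 CPM in E11.5 Controls, far apart (log2 fold change 3.30, SE 0.28, adjusted p = 5.02e-08). L3mbtl2 was the reader that fell (log2 fold change -1.75, SE 0.50, adjusted p = 0.0118). Of the HUSH and MORC2 list, whose products spread H3K9 trimethylation with SETDB1, 4 of 5 tested genes rose: Pphln1 (1.46), Mphosph8 (1.16), Morc2a (0.94) and Fam208a (0.88). Of 13 demethylases 4 rose, Kdm1b (2.77), Jmjd1c (1.68), Kdm3b (1.05) and Kdm7a (1.46), and 3 of 8 KRAB zinc finger genes rose, Zfp932 (2.29), Zfp708 (2.14) and Zfp819 (1.76). Fam208a lost its call without E13.5 Control 3 (log2 fold change 0.37) or without E11.5 Control 1, 2 or 4, Zfp708 without E13.5 Control 3 or E11.5 Control 4, and Zfp819 without E11.5 Control 4. These counts stand beside the 31.5% of all genes called in this comparison, 15.8% as higher.

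In XY ECKO cells over the same interval 2 of 12 partners rose and 2 fell, 3 of 7 readers rose and 1 fell, 4 of 5 HUSH and MORC2 genes rose, 6 of 13 demethylases rose, 1 of 3 other writers rose and none of 8 KRAB zinc finger genes passed, beside 23.7% of all genes called and 11.4% called as higher. With 1 library left out in turn, the call was kept in 7 of 15 fits for Kdm3b, 11 for Prdm16, 11 for Mphosph8, 12 for L3mbtl2 and 14 for Uhrf1. Atf7ip (1.62 on the log2 scale), Cbx3 (2.78), Pphln1 (1.22) and Kdm1b (2.10) rose here as in Controls. Chaf1a (-1.22, SE 0.33, adjusted p = 0.0102) and Chaf1b (-3.10, SE 0.62, adjusted p = 0.00113), both subunits of CAF-1, fell. In Controls Chaf1a had 0.49 (SE 0.29, adjusted p = 0.216) and Chaf1b -1.08 (SE 0.51, adjusted p = 0.112). The difference between the genotypes was -1.70 (SE 0.44, adjusted p = 0.0603) for Chaf1a and -2.02 (SE 0.76, adjusted p = 0.173) for Chaf1b, neither called.

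Over the 22 bulk libraries, the genes whose log2 CPM followed each of the 6 most closely were ranked by Pearson's r among 10482 genes tested in all 3 tables, as a description of libraries that share stage, sex and table. The closest gene to Trim28 was Trp53 (r = 0.90), followed by Helz and Parp1 (both 0.86). Setdb1 was nearest to Phf20 (0.92), Sarnp and Anxa11, and Suv39h2 to Ascc3 (0.91), Ncoa2 and Ubxn4. Ehmt2 was nearest to Stat3 (0.89), then Piwil4 and Hivep3 (both 0.80). Ehmt1, with Adam10 (0.80), Pfn2 and Mtus1, and Suv39h1, with Lrig1 (0.77), Blcap and Gnat2, had looser matches.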

How the data were processed

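The authors deposited counts per gene for 22 bulk libraries in 3 tables and for 192 E12.5 cells in 2 tables. The submitters' processing notes name HISAT2, edgeR and the mm9 build, without versions, and a strand setting is not given in the sources used here. Another 8 bisulfite libraries were not analysed here. Groups came from the sample titles and characteristics, and where nothing ties replicates to separate embryos, p-values measure only the spread between these samples, which may be technical.

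Counts were filtered (filterByExpr), TMM-scaled and tested with edgeR 4.0.16 in R 4.3.3 (glmQLFit, glmQLFTest, Benjamini-Hochberg over all genes tested, threshold 0.05), each bulk table apart for ECKO against Control. Contrasts of stage or sex joined 2 tables. Each printed SE is the absolute log2 fold change divided by the square root of that test's F, not a standard error from the fit. Printed CPM share one scale over the 22 bulk libraries, and another over the 8 embryo sums, while CPM of single cells were not TMM-scaled. E12.5 cells with at least 50000 counts and 1500 genes were kept, 127 of 192 (median 1310080 counts), and summed per embryo. A median of 1717 counts was found in the other 65. The other tools were DESeq2 1.42.0, limma 3.58.1, Python 3.11.15, pandas 2.3.3, NumPy 2.4.6, SciPy 1.17.1 and matplotlib 3.10.9. The edgeR step was tested on simulated data with known changes.

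The 6 genes and the lists were chosen with earlier results of these data known. The named genes are the 6, Eed, up to 4 called genes of each list by smallest adjusted p, and the 3 genes nearest to each of the 6 by Pearson's r of log2 CPM (prior count 2). Alternatives were RLE scaling, DESeq2, no filter, each sample left out, a replicate block, one fit over all bulk libraries, limma on mean log2 CPM of cells, and stricter cell filters. One cell with an XX ECKO title has a wild-type genotype label, and its column could not be matched.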

Additional observations from a re-analysis of the deposited data

Results flagged for a closer look

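Ehmt2 in the E13.5 XY Controls had 1 library far from the rest. Control 2 had 115 CPM, against 56.2 to 63.5 CPM in the other 3 Controls, and the gap to the nearest of them was 0.876 of the range of the group, above Dixon's critical value for 4 samples. Among 28 groups examined over 7 genes (the 6 and Eed) this was the only one, and chance gives about 5% of groups. Without Control 2 the log2 fold change of Ehmt2 in E13.5 XY ECKO over Control was 1.20, with an adjusted p of 0.0904.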

How the results depend on the processing

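Of 1098 values of the 6 genes under an alternative, 1078 kept their side of the threshold, 17 lost a call, 3 gained one, and no called value changed sign, while 83 uncalled values did. The cause of these changes was not tested unless named. Genes called in E11.5 XY ECKO against Control numbered 266, with 1031 by DESeq2, 457 without the filter, 23 in one fit over the 22 libraries and 64 to 333 with 1 library left out. In E11.5 XX they numbered 19, with 325, 217, 9 and 0 to 26 in the same order, and in E13.5 XY 604, with 2108, 1268, 2987 and 94 to 2141. In E12.5 XX there were 3, with 1085 by DESeq2, 566 without the filter, 84 by limma and 46 to 241 with 1 embryo left out, and in E12.5 XY 1, with 397, 150, 0 and 3 to 53. For differences of the ECKO effect, DESeq2 called 1 gene between the E11.5 sexes (0 to 1 with 1 library left out), 200 between the E12.5 sexes (84 without the filter, 0 to 37 with 1 embryo left out) and 911 between the XY stages (306 without the filter, 30 to 1267). For XX against XY Controls it called 175 at E11.5 (65 without the filter, 31 to 53) and 348 at E12.5 (146 without the filter, 16 to 100). Stage contrasts gave 3644 to 5333 genes in Controls and 2736 to 4248 in ECKO with 1 library left out.

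Of the 6 genes, none was called in one fit in E11.5 XY, where that fit called 23 genes. In E13.5 XY 2 were called, Trim28 and Ehmt2, where the one fit called 2987 genes, against 604 in the main fit. With 1 library left out, 0 to 1 of the 6 were called in E11.5 XY, 0 to 1 in E13.5 XY, 1 to 2 between the stages in Controls and 0 to 1 in ECKO. Same-numbered ECKO and Control samples had low correlations, between -0.146 and 0.158. Only in E11.5 XX were some of them each other's closest match, replicates 1 (0.055) and 3 (0.158). With a replicate block, 0 of the 6 were called in E11.5 XY (Trim28 -0.55, adjusted p = 0.111), and 32 genes were called in E11.5 XX and 129 in E13.5 XY. Eed passed edgeR's test in E11.5 XX with that block (log2 fold change -2.08, adjusted p = 0.0202). Leaving out both columns that could be the cell with differing labels, chosen after seeing the data, changed no call of the 6. Cells thinned to 50000 counts left 47 of 48 shares within their intervals, and the stricter cell filter 45 of 48. Whether ECKO and Control shares overlapped still changed for Ehmt1, Ehmt2 and Suv39h1, as given with the shares.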
